A study of Mus musculus with 24 samples.

Results

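The microRNA miR-122 was followed through 24 one-colour Agilent mouse miRNA arrays of liver RNA. Its hairpin yields a mature product from each arm, mmu-miR-122-5p and mmu-miR-122-3p, and these 2 were picked by name among the 1881 mouse miRNAs on the array. The rule uses no signals, although earlier results of these data were known when miR-122 was chosen. The 3 mice that gave the livers were numbered 7, 9 and 10, and every mouse gave 1 array in each of 8 groups. Total RNA with small RNAs was isolated with the miRNeasy kit from liver parts that were fresh (0 h) or had been left at room temperature for 96 h, in each case with or without DNase digestion on the column. RNA depleted of small RNAs was isolated from fresh liver with the RNeasy kit and DNase digestion, and was hybridized untreated or after incubation with 0 U, 0.026 U or 0.67 U of RNase and a second isolation. All arrays carry RNA of whole liver. The mice were male, and a strain (C57BL6, Il1a knock-out) is stated in the methods only for animals of a time course. In such bulk samples fewer hepatocytes and less miR-122 per hepatocyte cannot be told apart.

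miR-122 is the leading miRNA of the hepatocyte, the main cell of the liver. Its precursor is transcribed from a liver-specific gene and cut by Drosha and Dicer into a duplex, of which the 5p arm is the guide strand that is loaded into Argonaute proteins and the 3p arm is the passenger strand that is mostly degraded. The guide strand represses mRNAs of many genes, among them genes of fatty acid and cholesterol metabolism, it is used by hepatitis C virus for its own replication, and its appearance in blood is a marker of liver injury.

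The signal of a miRNA is its background-subtracted fluorescence intensity, and it was not scaled between arrays unless stated. Where the miRNA was detected it is the total of the scanner software over its probes, and otherwise the sum of its probe signals. Each arm is read by 2 probes with 30 spots in all per array, and none of the 720 spots of either arm over the 24 arrays was saturated. mmu-miR-122-5p was detected on 24 of 24 arrays, with a median variation between spots of one probe of 5.96% (coefficient of variation). mmu-miR-122-3p was detected on all 12 arrays with small RNAs and on 6 of the 12 depleted arrays, with a median variation between spots of 24.6%. For 5p the total was the sum of both probes on all 24 arrays, but for 3p it held 1 probe only on 3 of the 6 stored and 6 of the 12 depleted arrays, so values with both probes on every array are given beside the 3p results below. Signals of different probes depend on the probe, so the level of one arm is not set against that of the other here, and statements on both arms concern how their difference changed. Single values such as shares were compared by two-sided exact permutation of the arrays. Paired permutations exchanged arrays inside each mouse and cannot go below p = 0.00926 for storage or p = 0.037 for RNase. Permutations of 3 arrays against 3 cannot go below p = 0.1. For storage the arrays of a mouse were exchanged across both DNase states, and for RNase across 0 U and both doses. Arrays of one mouse thus counted as separate units, and these p values rest on 3 mice only. Benjamini-Hochberg adjustment covered the 18 such tests made on the main values. It gave 0.0278 for the 6 exact permutation tests at 0.00926, 0.0833 for the 2 at 0.037 and 0.12 for the 5 at 0.1. Permutation tests of alternative values, such as those with both probes of 3p on every array, lie outside this adjustment.

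The tissue label was checked against cell type markers. In fresh RNA with small RNAs mmu-miR-122-5p held 6.19% to 12.3% of the summed signal of all detected miRNAs. Of 6 miRNAs known for brain, muscle, heart or pancreatic islets, 0 were detected on any of the 6 fresh arrays, while mmu-miR-133a-3p, known from muscle and heart, was detected on 6 of 6 stored arrays with 0.00299% to 0.00603% of the signal. Among markers of other liver cells on these arrays, 3 erythroid miRNAs together held 0.222% to 0.406%, 5 leukocyte miRNAs 0.0523% to 0.113%, 2 endothelial miRNAs 0.278% to 0.523%, 4 stromal miRNAs 0.0376% to 0.0888% and 3 biliary miRNAs 0.00645% to 0.0119% of the signal. Detected on all fresh arrays were 2 of 3 erythroid, 2 of 5 leukocyte, 2 of 2 endothelial, 3 of 4 stromal and 2 of 3 biliary miRNAs. The summed share of the first 4 of these lists fell on every stored array below its lowest fresh value. The biliary list was at 0 on all stored arrays. The total signal of the detected miRNAs was 1.42 to 4.45 times as high after storage within each mouse, which lowers a share by itself. The part of other cell types in the results below was not tested.

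In fresh RNA the guide strand was among the brightest miRNAs of the liver. With DNase its signal was 6767 in mouse 7, 11368 in mouse 9 and 12125 intensity units in mouse 10. Without DNase it was 8176, 11277 and 13686 units in the same order of mice. It held place 3 by signal on all 6 fresh arrays, behind mmu-miR-6366 with 40.1% ± 2.22 and mmu-miR-3963 with 20.7% ± 3.19 of the detected signal in DNase-treated RNA (SD, n = 3 each). The passenger strand gave 53.1, 81.0 and 90.8 units with DNase in mice 7, 9 and 10, and 51.6, 70.3 and 94.3 units without. Its place among the detected miRNAs was 46 to 58.

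**Figure D1:**
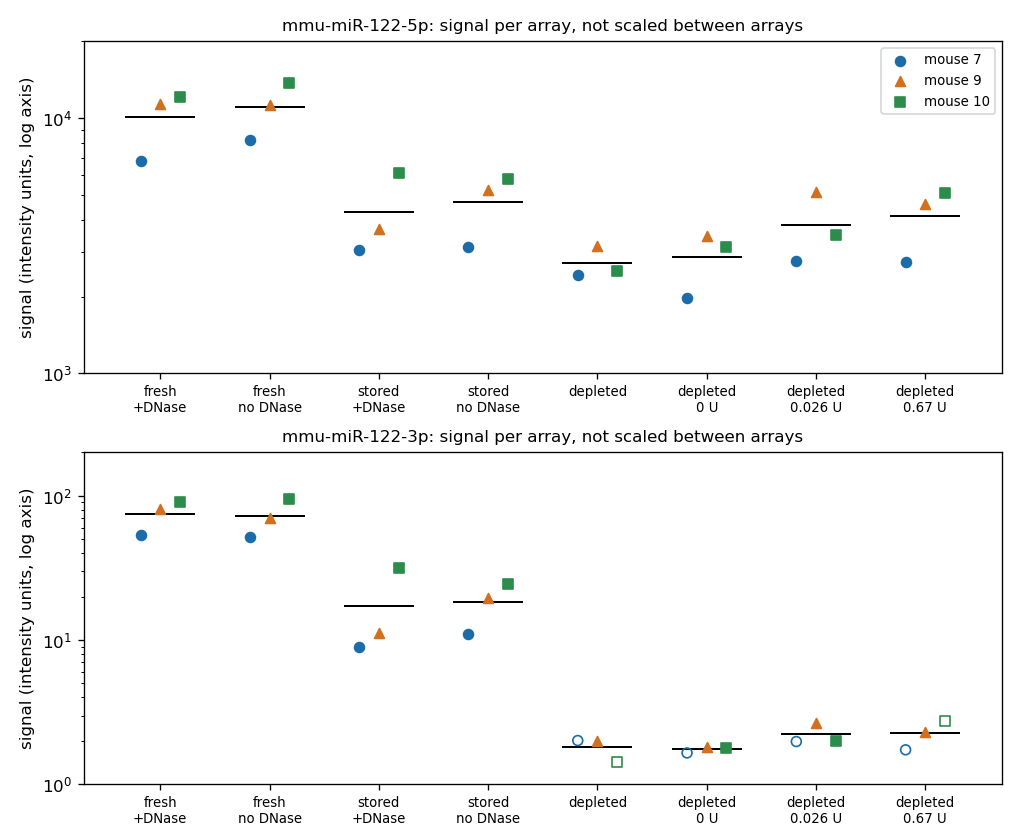
Signal of mmu-miR-122-5p (upper panel) and mmu-miR-122-3p (lower panel) on each of the 24 arrays, in intensity units on log axes and not scaled between arrays. Symbols mark the mice, filled symbols are arrays on which the miRNA was detected, open symbols arrays on which it was not, and black bars are group means. The 6 fresh arrays lie above all others in both panels, and the passenger strand lies between 1.42 and 2.76 units in depleted RNA.

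Leaving out DNase did not move either arm of miR-122 beyond the spread between mice. In fresh RNA the change without DNase was 0.13 (SE 0.49) for mmu-miR-122-5p and -0.08 (SE 0.41) for mmu-miR-122-3p on the glog2 scale, a log2-like scale made by variance stabilizing normalization (vsn) of the arrays (limma adjusted p = 0.991 for both, 95% confidence interval of the 5p change -0.89 to 1.15). A miRNA was called at a limma adjusted p under 0.05 with a change of at least 1, and 0% of the 631 miRNAs tested were called here. The share of mmu-miR-122-5p in the detected signal was nevertheless lower without DNase in all 3 mice. It was 6.19% to 8.53% against 11.1% to 12.3%, with no overlap (difference -4.19 percentage points, exact permutation p = 0.1). Such separation was not counted for the shares of other miRNAs. Between these arrays the 5p signal of each mouse was 99.2% to 121% of that with DNase, while the total signal of the detected miRNAs was 1.43 to 2.39 times as high.

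In stored RNA the omission of DNase gave changes of 0.29 (SE 0.49, limma adjusted p = 0.728) for the guide and 0.34 (SE 0.41, limma adjusted p = 0.634) for the passenger strand, against a background of 10.8% called. The mice did not go the same way: in stored RNA the 5p signal without DNase was 103% of that with DNase in mouse 7, 142% in mouse 9 and 94.6% in mouse 10. The effect of storage did not differ detectably between the DNase states for either arm. The interaction was 0.16 (SE 0.69, 95% confidence interval -1.28 to 1.59, limma adjusted p = 0.943) for 5p and 0.42 (SE 0.58, limma adjusted p = 0.811) for 3p, and 1.11% of the miRNAs were called in it.

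Storage of the tissue lowered both arms of miR-122. The RNA integrity number (RIN), which is high for intact RNA, was 8.8 to 9.0 on the fresh arrays and 2.3 to 2.5 on the stored ones. With DNase the guide strand gave 3030 units in mouse 7, 3677 in mouse 9 and 6117 in mouse 10 after 96 h, and without DNase 3120, 5228 and 5788 units. All 6 stored arrays lay below all 6 fresh arrays. How many of all miRNAs separated fresh from stored arrays in this way was not counted. Within a mouse 32.3% to 50.5% of the fresh 5p signal was left with DNase and 38.2% to 46.4% without. Of 247 tested miRNAs detected on all fresh arrays, 81 kept less than 5p on average with DNase and 82 without. The median kept was 202% with DNase and 73.6% without. Over both DNase states the 5p signal was 2.38-fold lower (exact paired permutation p = 0.00926).

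The passenger strand lost more of its signal. It gave 8.92, 11.1 and 31.4 units after storage with DNase in mice 7, 9 and 10, and 10.98, 19.5 and 24.5 units without. Again no stored array reached a fresh one, and how many other miRNAs separated in this way was not counted. Within a mouse 13.7% to 34.6% of the fresh signal was left with DNase and 21.3% to 27.8% without, and over both states the signal was 4.49-fold lower (exact paired permutation p = 0.00926). Mice 7 and 9 with DNase and mouse 7 without had 1 probe in the stored total. With both probes on every array 16.2% to 34.6% was left with DNase and 25.6% to 27.8% without, the signal was 4.11-fold lower, and stored arrays at 10.7 to 31.4 units still lay below fresh ones at 51.6 to 94.3. The stored signal of the passenger strand still came from a probe whose 15 spots were well above background on all 6 arrays, whereas of the 15 spots of the other probe 0 to 10 were.

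On the glog2 scale, where vsn has scaled the arrays to each other, the same falls were larger. The summed signal of the detected miRNAs was 1.42 to 4.45 times as high after storage within each mouse. With DNase the change was -3.08 for the guide (SE 0.49, limma adjusted p = 6.71e-06) and the passenger strand fell by 4.01 (SE 0.41, limma adjusted p = 2.75e-08), each lower in every one of 3 mice. The stored 3p values of mice 7 and 9 with DNase were 1.87 and 1.93 on this scale. They lay within the range of 1.68 to 2.24 of the depleted arrays, where 3p was near background, which limits how the size of this fall can be read. Without DNase the changes were -2.93 (SE 0.49, limma adjusted p = 1.37e-05) and -3.59 (SE 0.41, limma adjusted p = 1.22e-07). The background was high: 81.9% of the miRNAs were called with DNase and 83.5% without, most of them higher, and the median change of all 631 was 2.47 with DNase. The lower direction alone took 21.6% and 23.0% of them. Of the 631 changes with DNase, 73 were lower than that of mmu-miR-122-5p and 21 were lower than that of mmu-miR-122-3p.

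A list of 20 miRNAs abundant in liver was set beside miR-122, of which 19 are on the array and 18 were tested. All 18 were called lower after storage, with and without DNase, with a median change of -3.22 with DNase and a range of -5.12 to -2.26. In signal, without scaling, the list kept a median of 38.9% in DNase-treated RNA, against 42.5% ± 9.26 (SD, n = 3) for mmu-miR-122-5p and 21.7% ± 11.3 (SD, n = 3) for mmu-miR-122-3p, or 23.6% ± 9.71 (SD, n = 3) with both of its probes. Its lowest values were those of mmu-let-7f-5p with 14.2%, mmu-miR-23b-3p with 17.2% and mmu-let-7a-5p with 17.6%, and mmu-miR-101a-3p kept 72.8%. The guide strand thus lay inside the range of the list. The list was assembled with earlier results of these data known.

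The share of mmu-miR-122-5p in the detected signal fell after storage from 6.19% to 12.3% on the fresh arrays to 1.01% to 3.07% on the stored arrays. Its place among the detected miRNAs moved from 3 to between 7 and 20. In stored DNase-treated RNA the brightest were mmu-miR-3963 with 13.0% ± 10.9, mmu-miR-5126 with 7.38% ± 1.90 and mmu-miR-8110 with 6.24% ± 5.61 (SD, n = 3 each). The mean difference was -7.81 percentage points (exact paired permutation p = 0.00926), with all stored arrays below all fresh ones. It was -14.1 points when the brightest other miRNA of each array was left out of the total. Separation of fresh from stored arrays was not counted for the shares of other miRNAs. The share of mmu-miR-122-3p fell from 0.0391% to 0.0961% down to 0.00306% to 0.0158%.

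**Figure D2:**
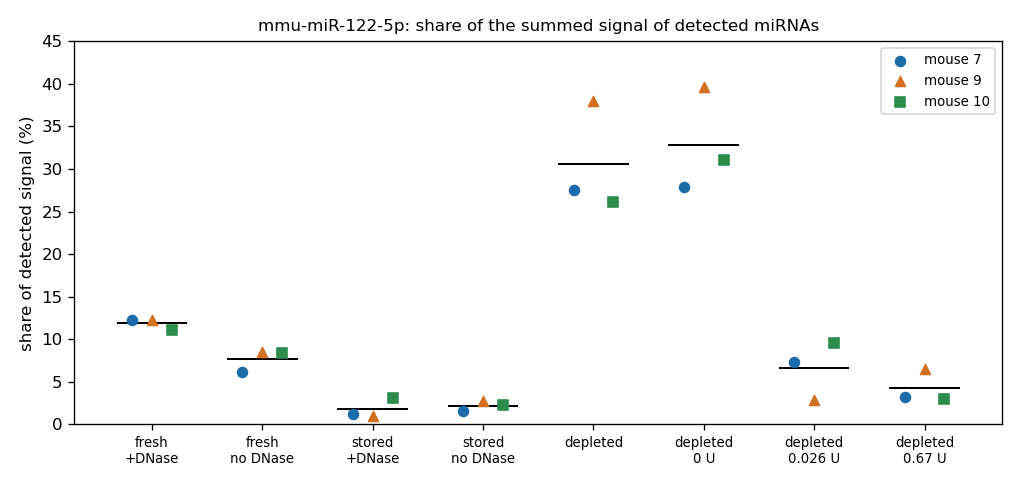
Share of mmu-miR-122-5p in the summed signal of all detected miRNAs, in percent, for each array, with symbols for the mice and black bars for the group means. The share was highest, 26.2% to 39.7%, on the 6 depleted arrays without RNase, and lowest, 1.01% to 3.07%, on the 6 stored arrays.

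The loss of the passenger strand with storage exceeded that of the guide. The difference between the arms, glog2 of 5p minus glog2 of 3p, was 6.98 to 7.31 on the fresh and 7.54 to 8.21 on the stored arrays, with no overlap. It grew by 0.80, which is 1.74-fold (exact paired permutation p = 0.00926). With both probes of 3p on every array it was 6.98 to 7.31 on the fresh and 7.54 to 7.99 on the stored arrays and grew by 0.68, which is 1.61-fold (exact paired permutation p = 0.00926). Storage changes of both arms in DNase-treated RNA were compared for 20 hairpins with both arms tested and detected on all fresh arrays. They differed by 0.93 for miR-122, and by more, in either direction, for 15 of the 19 others. Overlap between fresh and stored arrays was not counted for the others.

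**Figure D3:**
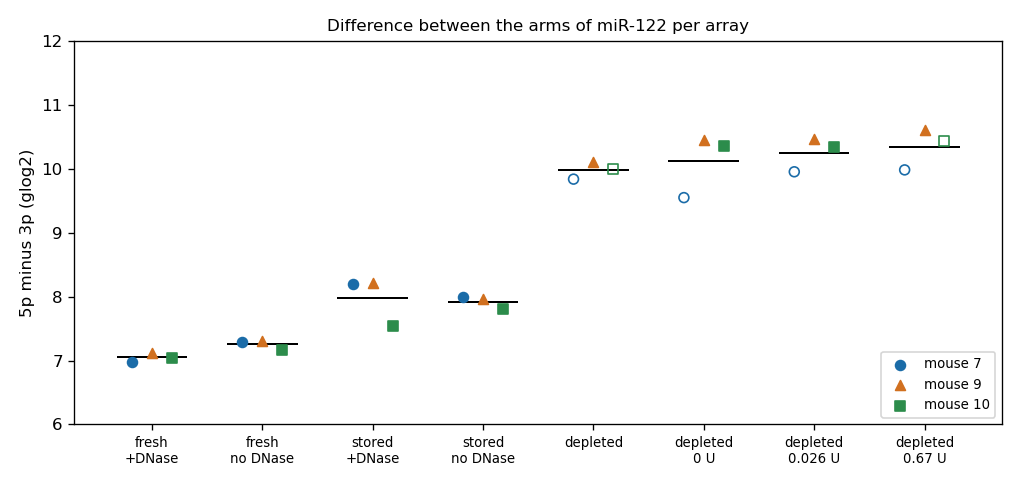
Difference between mmu-miR-122-5p and mmu-miR-122-3p on the glog2 scale for each array, with symbols for the mice, black bars for the group means and open symbols where 3p was not detected. Fresh arrays lie between 6.98 and 7.31, stored arrays between 7.54 and 8.21 and depleted arrays between 9.55 and 10.6, the last resting on 3p signals near background.

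The probes of the guide strand did not lose signal alike. Probe A_54_P2401 gave 1.70 to 1.76 times the signal of probe A_54_P2400 on the 6 fresh arrays, and 2.10 to 2.35 times on the 6 stored arrays. On the 12 depleted arrays the ratio was 1.61 to 1.78, RNase-treated arrays included. The log2 ratio rose by 0.37 with storage (exact paired permutation p = 0.00926) and changed by 0.02 with RNase (exact paired permutation p = 0.481). Without scaling the fall with storage in DNase-treated RNA was therefore 1.51 on the log2 scale by probe A_54_P2400 and 1.13 by probe A_54_P2401. This comparison was chosen after the values were seen. Of 45 miRNAs with 2 probes that both gave at least 10 units on the 12 arrays with small RNAs, 16 (35.6%) also had probe ratios that did not overlap between fresh and stored RNA, and 5 had a larger change than mmu-miR-122-5p. The probes of the passenger strand had ratios of 4.45 to 4.98 in fresh and 4.64 to 5.49 in stored RNA, which overlap (exact paired permutation p = 0.0741), where the stored values include the probe with 0 to 10 of 15 spots well above background.

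**Figure D4:**
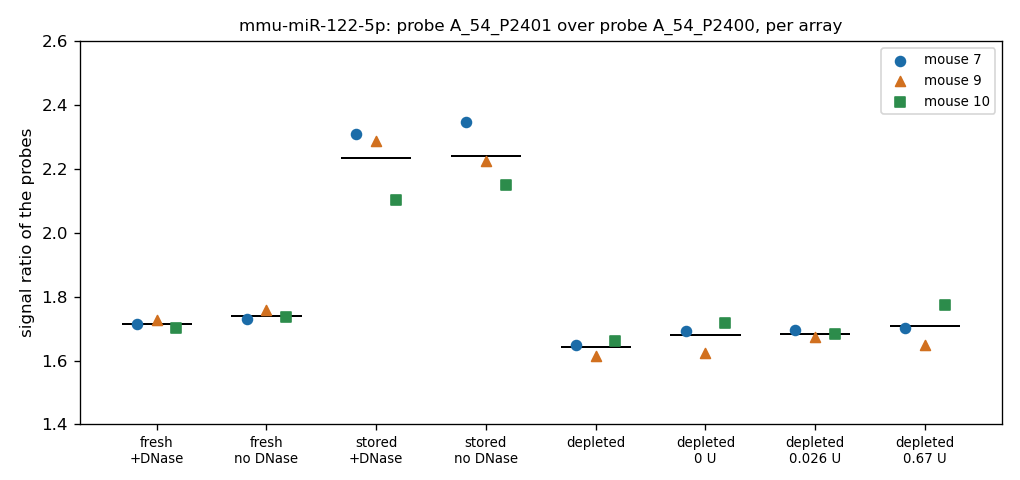
Ratio of the signals of the 2 probes of mmu-miR-122-5p, A_54_P2401 over A_54_P2400, for each array, with symbols for the mice and black bars for the group means. The 6 stored arrays lie at 2.10 to 2.35 and the other 18 at 1.61 to 1.78. The axis does not start at 0.

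Depletion of small RNAs removed nearly all of the passenger strand signal but left a clear signal of the guide. In untreated depleted RNA the guide strand gave 2436 units in mouse 7, 3157 in mouse 9 and 2521 in mouse 10. All 3 lay below the 3 fresh DNase-treated arrays. How many of all miRNAs did so was not counted. The signal left within a mouse was 36.00%, 27.8% and 20.8%, a mean of 28.2% ± 7.61 (SD, n = 3). Of 247 tested miRNAs detected on all fresh arrays, 112 kept less, and the median was 36.4%. The passenger strand gave 2.01, 2.01 and 1.42 units and was detected in mouse 9 only. Of its fresh signal 3.79%, 2.49% and 1.57% was left, as upper limits in mice 7 and 10, and 34 of the 247 kept less than its mean of 2.61%. With both probes counted mouse 9 kept 3.33%.

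On the glog2 scale depletion lowered 5p by 1.79 (SE 0.49, limma adjusted p = 0.00622) and changed 3p by -4.73 (SE 0.41, limma adjusted p = 9.16e-09), both lower in 3 of 3 mice. 3p fell by 4.61 with both probes on every array and is a lower limit, since 3p was detected on 1 of the 3 depleted arrays. The background was 29.8% called, 24.4% in the lower direction. The fall of 5p was not called when only the compared groups were fitted (limma adjusted p = 0.0654), when mouse 9 or mouse 10 was left out (limma adjusted p = 0.0624 and 0.0925), or without the filter on detection (limma adjusted p = 0.170). Under quantile normalization 5p was called in the opposite direction, higher by 2.36 (limma adjusted p = 0.000686), as it was under normexp with quantile normalization, by 1.74 (limma adjusted p = 0.00251). The arm difference grew by 2.94, or 2.83 with both probes of 3p on every array. Both are lower limits, as at most 1 of 15 spots of either 3p probe was well above background in untreated depleted RNA.

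The share of the guide strand rose as its signal fell. It was 27.5%, 38.0% and 26.2% of the detected signal in mice 7, 9 and 10, against 12.3%, 12.3% and 11.1% in fresh DNase-treated RNA. The difference was 18.7 percentage points (exact permutation p = 0.1), with no overlap. The number of miRNAs whose share separated in this way was not counted. mmu-miR-122-5p was the brightest miRNA on all 3 arrays, ahead of mmu-miR-3963 with 20.2% ± 2.66 and mmu-miR-494-3p with 4.56% ± 1.70 (SD, n = 3 each). The total signal of the detected miRNAs was 0.0881 to 0.160 times the fresh total. Of the liver list, 14 of 18 were called lower after depletion, with a median change of -3.17, and 14 had a larger fall than mmu-miR-122-5p. The 2 with the smallest falls were mmu-let-7b-5p with -0.41 and mmu-miR-455-3p with -0.48, neither called.

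Incubation without enzyme gave no change of either arm beyond the spread between mice. At 0 U the guide strand gave 1982, 3452 and 3116 units in mice 7, 9 and 10 and stayed the brightest miRNA, with 27.8%, 39.7% and 31.0% of the detected signal. The change against untreated depleted RNA was 0.35 (SE 0.49, limma adjusted p = 0.992) for 5p and 0.21 (SE 0.41, limma adjusted p = 0.992) for 3p, with 1.74% of all miRNAs called. The share changed by 2.29 percentage points (exact permutation p = 0.5).

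After RNase treatment of depleted RNA the unscaled signal of the guide strand was higher in each mouse, and its share of the total was lower. The guide strand gave 2761, 5146 and 3483 units at 0.026 U and 2719, 4599 and 5083 units at 0.67 U in mice 7, 9 and 10. For mouse 9 the labels of these 2 arrays contradict each other, and the doses used here follow the descriptions, with which the RIN of 6.0 and 2.4 go. Each of the 6 arrays was above the 0 U array of its mouse, by a signal of 112% to 163%. Over both doses the unscaled signal was 1.38-fold higher (exact paired permutation p = 0.037), a change that the fit across all miRNAs did not call at 0.47 (SE 0.34, limma adjusted p = 0.366). The passenger strand stayed near background at 1.74 to 2.76 units and was detected on 3 of 6 arrays.

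On the glog2 scale the change with both doses was 0.05 (SE 0.42, 95% confidence interval -0.83 to 0.93, limma adjusted p = 0.969) for 5p and -0.14 (SE 0.35, 95% confidence interval -0.88 to 0.61, limma adjusted p = 0.849) for 3p. In that comparison 44.7% of the miRNAs were called, and the median change of all was 0.69. By dose, 36.8% were called at 0.026 U and 45.3% at 0.67 U. The guide changed by 0.04 (SE 0.49) at 0.026 U and by 0.05 (SE 0.49) at 0.67 U, and the passenger strand by -0.10 (SE 0.41) and -0.17 (SE 0.41). Of the liver list 0 of 18 were called in either direction at any dose by limma, with a range of -0.82 to 0.23 over both doses. With 3p detected on 2 of 3 arrays at 0 U and 3 of 6 with RNase, its changes and the arm difference compare values near background and are not read further.

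The share of the guide was 7.34%, 2.90% and 9.59% at 0.026 U and 3.26%, 6.54% and 3.02% at 0.67 U, all below the 0 U arrays. It fell by 27.4 percentage points over both doses (exact paired permutation p = 0.037). How many other miRNAs had all RNase shares below those at 0 U was not counted. The total signal of the detected miRNAs was 3.62 to 20.4 times that at 0 U. At 0.67 U mmu-miR-494-3p held 61.1% ± 1.33 and mmu-miR-1224-5p 6.42% ± 0.27 of the detected signal, and mmu-miR-122-5p followed with 4.27% ± 1.97 (SD, n = 3 each). Without the brightest other miRNA in the total the share fell by 27.2 points. With the doses of mouse 9 exchanged as in the titles, the mean share at 0.026 U was 7.82% ± 1.58 in place of 6.61% ± 3.41, and at 0.67 U 3.06% ± 0.18 in place of 4.27% (SD, n = 3 each).

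Stored and depleted RNA ranked differently by signal and after scaling. Without scaling the group means of mmu-miR-122-5p ran from 11046 units in fresh RNA without DNase and 10087 with DNase, over 4712 and 4275 in stored RNA without and with DNase, to 4134 at 0.67 U, 3797 at 0.026 U, 2850 at 0 U and 2705 in untreated depleted RNA. Only the step from fresh to all other groups was free of overlap between arrays, and all neighbours in this order among the other 6 groups overlapped, as did both fresh groups. On the glog2 scale the fresh arrays again led with 13.1 to 14.1, but the depleted arrays came next with 11.50 to 12.8 and the stored arrays last with 10.06 to 11.51, where 1 stored array (mouse 10, with DNase) reached the lowest depleted one. Untreated depleted RNA exceeded stored DNase-treated RNA by 1.29 there (SE 0.49, limma adjusted p = 0.0212, 3 of 3 mice), with 69.4% of the miRNAs called, 592 of 631 changes lower than that of 5p, and a median change of -2.65. The difference was not called without mouse 7 (1.08, limma adjusted p = 0.182) or without mouse 9 (0.94, limma adjusted p = 0.208). The passenger strand, detected on 1 of the 3 depleted arrays, changed by -0.71 (SE 0.41, limma adjusted p = 0.121) between these groups.

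The direction of several of these changes depended on how the arrays were scaled to each other. The fall of both arms with storage and of 3p with depletion was called under all 8 scalings tried. With DNase the guide fell by 1.25 under scaling to spike-in features, the smallest fall, and fell by 4.83 with vsn fitted on the kept miRNAs, the largest. The depletion change of 5p was -1.79 with vsn, -1.60 with spike-in scaling and -1.86 without scaling, but 2.36 under quantile normalization, which gives the miRNA of each rank the same value on every array. With RNase the 5p change was 0.50 under spike-in scaling (limma adjusted p = 0.261) and -2.14 under quantile normalization (limma adjusted p = 0.000405). Untreated depleted against stored RNA gave -0.35 under spike-in scaling (limma adjusted p = 0.359) and 5.31 under quantile normalization (limma adjusted p = 1.35e-08). In that comparison the changes of 577 to 627 of the 631 miRNAs lay below that of 5p over the 8 scalings. The place of 5p among the miRNAs moved more in all other comparisons. There were 108 to 620 changes below it for depletion and 2 to 299 for RNase over both doses. For mock incubation there were 129 to 609, for DNase omission in fresh RNA 1 to 453 and for storage with DNase 11 to 105.

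**Figure D5:**
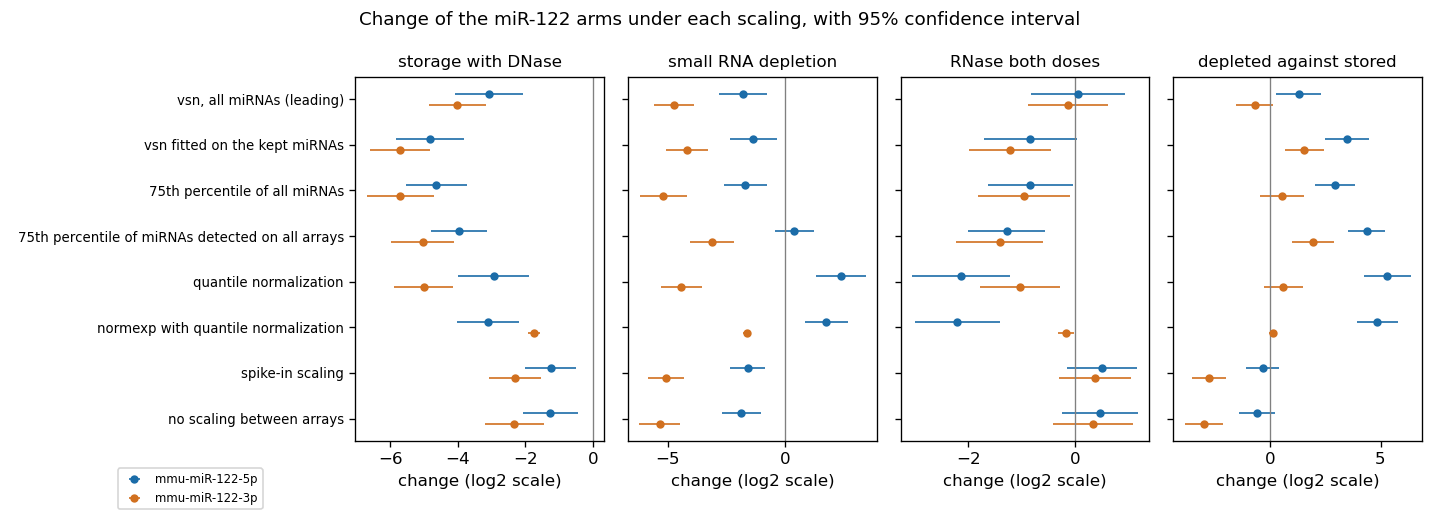
Change of mmu-miR-122-5p (blue) and mmu-miR-122-3p (orange) on a log2 scale in 4 comparisons under 8 ways of scaling the arrays, with points for the fitted change and lines for its 95% confidence interval. With storage all points lie below 0, whereas for depletion, RNase and depleted against stored RNA the 5p points lie on both sides of 0.

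Mouse 7 had the lowest 5p signal in 8 of 8 groups and the lowest glog2 value in 7, but the lowest share in 3. Mice 9 and 10 had no fixed order, with the higher 5p signal in mouse 10 in 5 groups and in mouse 9 in 3. The arrays of a mouse share a slide and a scan, and these cannot be told apart from the mouse.

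The miRNAs whose glog2 values over the 24 arrays were most like those of each arm were named by Pearson correlation, as a description over arrays that share mice and groups. For mmu-miR-122-5p these were mmu-miR-93-5p (0.982), mmu-miR-221-3p (0.976), mmu-miR-107-3p (0.976), mmu-miR-342-3p (0.975) and mmu-let-7f-5p (0.970). For mmu-miR-122-3p they were mmu-miR-194-5p (0.990), mmu-miR-126a-5p (0.988), mmu-miR-30a-5p (0.987), mmu-miR-30b-5p (0.981) and mmu-miR-29c-3p (0.981). The arms of miR-122 correlated with each other at 0.729, and at 0.855 under spike-in scaling, with 3p near background on the depleted arrays. Under spike-in scaling 2 of the first 5 and 4 of the second 5 remained among the 5 highest. The neighbours of 5p had depletion changes of -2.82 to -1.36, those of 3p of -5.35 to -3.36, while their storage changes overlapped. As the neighbours were picked on these same arrays, depletion changes near that of their arm are built into the choice. Mature sequences of 8 of these 10 are shown, from RefSeq (GRCm38.p6), to let their seeds be compared, with bases 2 to 8 in capitals.
mmu-miR-93-5p: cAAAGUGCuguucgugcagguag
mmu-miR-221-3p: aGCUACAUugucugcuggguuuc
mmu-miR-107-3p: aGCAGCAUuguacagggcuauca
mmu-miR-342-3p: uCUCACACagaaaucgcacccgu
mmu-let-7f-5p: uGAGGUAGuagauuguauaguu
mmu-miR-194-5p: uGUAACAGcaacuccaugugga
mmu-miR-30a-5p: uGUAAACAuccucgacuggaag
mmu-miR-29c-3p: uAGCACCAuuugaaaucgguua
The 8 sequences shown carry 8 different seeds. No sequence was at hand for mmu-miR-126a-5p and mmu-miR-30b-5p, so whether either shares a seed with another neighbour was not compared. Their GC content was 31.8% to 52.2% for the neighbours of the guide and 36.4% to 45.5% for those of the passenger strand.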

How the data were processed

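Per the file headers, scans were read by the authors with Agilent Feature Extraction 10.10.1.1. The deposited scanner files give intensity after background subtraction, unscaled across arrays, and flag each miRNA as detected or not. The deposited table holds vsn values on a log2 scale by the authors, used as an alternative. Here a miRNA's signal was its total gene signal where detected (which can leave out a probe) and otherwise the sum of its probe signals. vsn was written in Python 3.11.15 (7 rounds of least trimmed squares, 90% kept in 5 slices) and fitted on 1881 miRNAs; its values differed from the deposited ones by 0.0956 (SD). miRNAs detected on at least 5 of 24 arrays, 631, were tested with limma 3.58.1 on 8 group means with a variance trend and no mouse term, with Benjamini-Hochberg adjustment in each of 11 comparisons. Its script was tested on simulated data. Shares and arm differences were tested by two-sided exact permutation. Members and lists (named genes: both arms, the 5 most alike miRNAs of each, the 5 brightest of 4 groups, a liver list and cell type markers) were chosen with earlier results of these data known. The normexp alternative used median spot signals with an offset of 50. Same-numbered arrays come from one mouse, which pairs them. After group means were removed, arrays of one mouse correlated at 0.0914 on average and arrays of different mice at -0.0449. The number of arrays limits the precision.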

Additional observations from a re-analysis of the deposited data

How the results depend on the processing

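The 30 results were recomputed under 405 alternatives. Of these, 316 kept direction and side of the threshold, and 50 changed sign or became 0. A further 28 lost and 11 gained a call or a p under 0.05. The cause was not tested. The falls with storage and the 3p fall with depletion kept their calls under all scalings, filters and fits with limma. The replicate block for the mouse changed no call (5p depletion -1.79, limma adjusted p = 0.00186). By the exact rank test, with 0.1 as its lowest p for 3 against 3, the 5p changes of -3.08, -2.93, -1.79 and 1.29 and the 3p changes of -4.01, -3.59 and -4.73 were not called. The 5p depletion change of -1.79 and the depleted against stored difference of 1.29 also lost their calls with no filter and with only the compared groups. The 5p share differences of -10.1 and -5.50 points and arm differences of 0.93 and 0.67 with storage, within RNA with and without DNase (chosen after seeing the data), cannot go below an exact permutation p of 0.1. With the sum of probe signals the arm difference with RNase was 0.27 (two-sided exact permutation p = 0.037), with 3p near background on both sides.

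Scaling to the 75th percentile was done over miRNAs detected on every array (75th detected) or over all miRNAs (75th all), and vsn-kept stands for vsn fitted on the kept miRNAs. Signs that changed for 5p were as follows. Under 75th detected, depletion gave 0.39, RNase -1.28 over both doses, -1.16 at 0.026 U and -1.41 at 0.67 U, and DNase omission in fresh RNA -0.0036. Under quantile normalization depletion gave 2.36 and RNase -2.14, -1.92 and -2.36. DNase omission in fresh RNA and mock incubation gave 0 there, which is counted as a changed sign but is no reversal. Under normexp depletion gave 1.74, RNase -2.21, -1.97 and -2.44, and DNase omission in fresh RNA -0.39. RNase gave -0.84, -0.72 and -0.96 with vsn-kept and -0.84, -0.78 and -0.90 under 75th all. Mock incubation gave -0.0899 under spike-in scaling, depleted against stored -0.35 under spike-in scaling and -0.60 without scaling, and 0.67 U -0.12 with the dose labels from the titles.

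For 3p, depleted against stored turned to 1.55 with vsn-kept, 1.94 and 0.52 under 75th detected and 75th all, 0.60 under quantile normalization and 0.11 under normexp, and was called at -2.77 under spike-in scaling and -3.03 without scaling. RNase was called over both doses, at 0.026 U and at 0.67 U with -1.22, -1.02 and -1.42 with vsn-kept and -1.41, -1.24 and -1.59 under 75th detected, and over both doses and at 0.67 U with -1.03 and -1.22 under quantile normalization. It was 0.37, 0.37 and 0.37 under spike-in scaling, 0.34, 0.33 and 0.35 without scaling and 0.0326 at 0.026 U with the dose labels from the titles. Mock incubation gave -0.0040 under 75th detected, -0.17 under spike-in scaling and -0.0341 without scaling.

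With a mouse left out, 5p changed by -2.01 to -1.60 with depletion, 0.94 to 1.86 between depleted and stored RNA, -0.12 to 0.69 with DNase omission in stored RNA, -0.12 to 0.13 with RNase, -0.19 to 0.26 at 0.026 U, -0.0563 to 0.207 at 0.67 U and -0.34 to 0.59 in the interaction. For 3p the ranges were -0.15 to 0.91 with DNase omission in stored RNA, -0.198 to 0.061 at 0.026 U, -1.11 to 0.0778 between depleted and stored RNA and -0.15 to 1.06 in the interaction. The share changed by -8.17 to -7.45 points with storage and -29.8 to -23.6 with RNase, and the arm difference by 0.72 to 0.92 with storage, where an exact permutation with 2 mice cannot reach 0.05. The passenger strand in depleted RNA lies near background, so its changes there are limited by signal.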
